A study of Homo sapiens with 18 samples.

Results

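BE2C and Kelly are established human neuroblastoma cell lines, both described by the series as carrying an amplified MYCN oncogene, and they were compared here at baseline. The comparison used the 6 libraries of cells that had received the pLKO-GFP vector with no hairpin, 3 from BE2C and 3 from Kelly, out of 18 libraries in the series. The other 12 libraries came from the same lines with the hairpins shAhR-1 or shAhR-2 against the aryl hydrocarbon receptor gene AHR, and were used only to see which differences between the lines recurred. Total RNA was depleted of ribosomal RNA and sequenced, and the authors' raw counts were joined over 39368 gene symbols. Both groups had the same vector treatment and the control genotype in their labels, and differed in the line alone. Each group is 1 line, which is a model of 1 tumour, so a difference between them is a difference between these lines. The lines came in separate tables, and line cannot be told apart from any separate culture, extraction or sequencing of the lines.

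Neuroblastoma is a childhood tumour of the sympathetic nervous system that arises from neural crest cells on their way to becoming adrenergic neurons or chromaffin cells. Most lines keep an adrenergic identity, held by a set of transcription factors that regulate each other, such as HAND2, GATA3 and ISL1, and make enzymes of noradrenaline synthesis. Other cells are in a mesenchymal state that resembles neural crest precursors, with high vimentin and matrix genes. MYCN, a transcription factor of the MYC family, is amplified in many aggressive tumours.

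The 6 libraries held 38452042 to 45469353 counts each. BE2C had 42351647, 43423772 and 41969936 counts and Kelly 45469353, 40919700 and 38452042. The first principal component of log-CPM held 94.5% of the variance and separated the lines. Whether the libraries of a line came from separate cultures is not stated, so a p-value reflects only how these libraries vary, and that variation may be technical. The 9 markers of adrenergic neuroblasts summed to 3127 to 3246 CPM (counts scaled by library size) in the BE2C libraries and 5747 to 6073 CPM in the Kelly libraries, and each of them was present in both lines. The 6 leukocyte markers summed to at most 0.548 CPM in any BE2C library and 0.322 CPM in any Kelly library, with none tested. The 5 endothelial markers summed to 1.19 to 1.85 CPM in BE2C and 2.65 to 3.46 CPM in Kelly, and the 7 Schwann cell markers to 2.34 to 3.35 CPM in BE2C and 2.81 to 3.18 CPM in Kelly.

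Most genes differed. Of 15368 genes with enough counts to test, 6005 were higher in BE2C (39.1%) and 6311 lower (41.1%) at a Benjamini-Hochberg adjusted p below 0.05 (quasi-likelihood test of edgeR). Because replicates lay so close together that 80.1% of genes passed, the lists below are counted by a stricter test on the same fit, whose null is a difference of up to 2-fold. By that test 4073 genes (26.5%) differed beyond 2-fold, 1609 of them higher in BE2C (10.5%) and 2464 lower (16.0%). The median log2 fold change of all tested genes was −0.03. Unless said otherwise, "higher" and "lower" below mean called in BE2C relative to Kelly by this test. Each fold change is the log2 ratio of BE2C over Kelly ± SE, means are given ± SD with n = 3 in each line, and list counts stand against the shares of 10.5% and 16.0%. The genes of a list that passed the filter on low counts are those high enough in at least 1 line, so their counts are descriptions.

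**Figure D1:**
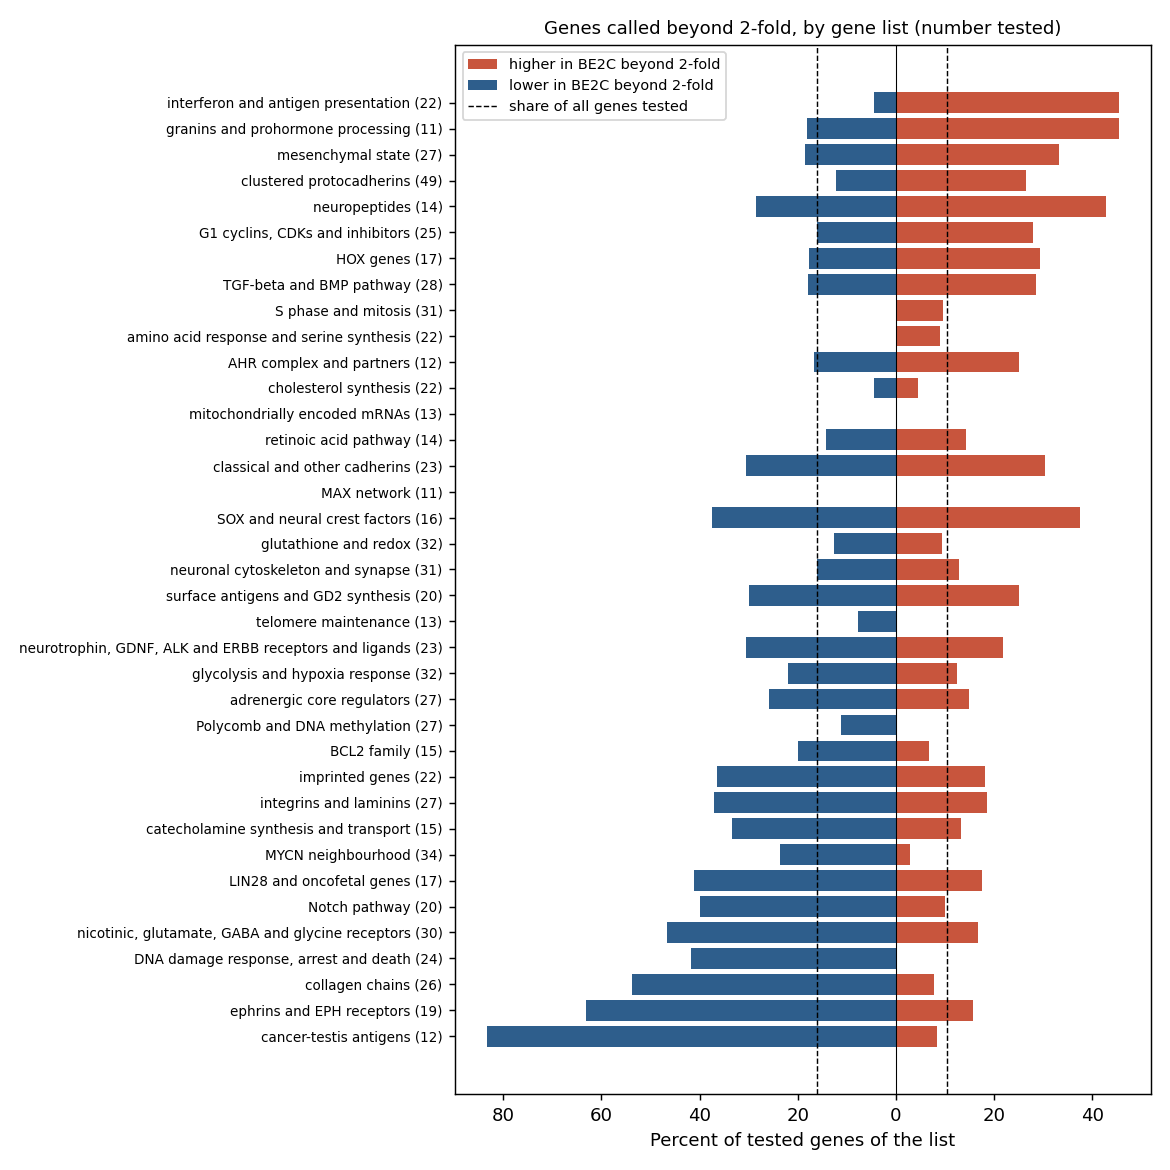
Percent of the tested genes of each list that were higher in BE2C (red, to the right) or lower in BE2C (blue, to the left) beyond 2-fold. Dashed lines mark the shares over all 15368 tested genes, 10.5% higher and 16.0% lower, and the number of tested genes stands after each list name. Cancer-testis antigens, ephrins and collagen chains reach furthest to the left.

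The difference recurred in the libraries with hairpins. Of the 4073 genes beyond 2-fold between the controls, 4031 had the same sign between the shAhR-1 libraries of both lines (99.0%) and 3048 were again beyond 2-fold (74.8%). Between the shAhR-2 libraries 3890 had the same sign (95.5%), 2811 were again beyond 2-fold (69.0%), and 111 were called with the opposite sign. Over all genes tested there, 9.85% were higher and 13.7% lower beyond 2-fold with shAhR-1, and 14.0% and 14.6% with shAhR-2. These values come from a fit of all 18 libraries that tested 17136 genes. List counts from the libraries with hairpins can therefore include genes not tested in the controls. Where a gene named below turned round in these libraries, this is said beside it.

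Several regulators of adrenergic identity were much lower in BE2C. All 27 listed regulators were tested, of which 4 were higher and 7 lower beyond 2-fold, with a median of −0.47. SOX11 (chromosome 2, 5692667–5701385, plus strand, GRCh38 as in all positions here), a SOX factor of immature neurons, had 8.27, 8.82 and 8.56 CPM in the BE2C libraries, against 154, 150 and 155 CPM in the Kelly libraries. All 3 BE2C libraries lay far below the Kelly libraries, at a log2 fold change of −4.16 ± 0.051 (adjusted p = 8.00e-31 against 2-fold). LMO1, a transcriptional cofactor and known neuroblastoma susceptibility gene, was at 0.494 ± 0.0687 CPM in BE2C, against 29.2 ± 1.31 CPM in Kelly, and the TALE homeobox gene MEIS3 at 6.93 ± 0.667 CPM in BE2C, against 78.4 ± 2.34 CPM in Kelly. Between the shAhR-2 libraries 11 of the regulators were lower beyond 2-fold.

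Other members of the same circuit were close between the lines. HAND2 had 514 ± 8.03 CPM in BE2C and 709.8 ± 8.13 CPM in Kelly (−0.47 ± 0.028), GATA3 271 ± 2.33 CPM in BE2C and 479.6 ± 25 CPM in Kelly (−0.82 ± 0.033) and GATA2 659.6 ± 24.4 CPM in BE2C and 893 ± 7.01 CPM in Kelly. ISL1, a LIM homeobox gene, had 67.1 ± 2.7 CPM in BE2C and 103 ± 1.63 CPM in Kelly (−0.61 ± 0.041). These 4 passed the test against 0 (adjusted p = 7.97e-16 for HAND2 and 1.38e-14 for ISL1) but not the test against 2-fold, and ISL1 had 0.05 between the shAhR-2 libraries. The repressor HEY1 was higher in BE2C, with 46 ± 4.13 CPM in BE2C and 14.5 ± 1.39 CPM in Kelly (1.66 ± 0.074). SOX4 (1.31 ± 0.037) and SIX3 (1.62 ± 0.064), factors of developing neural tissue, were also higher in BE2C. PHOX2A, included for the plot, had −0.28 in the controls and turned to 0.41 between the shAhR-1 libraries. In the plot of single libraries SOX11, HAND2, GATA3 and ISL1 do not overlap between the lines. The share of all tested genes without such overlap was not counted. Since 80.1% of tested genes passed the test against 0, lack of overlap here or below does not set a gene apart.

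**Figure D2:**
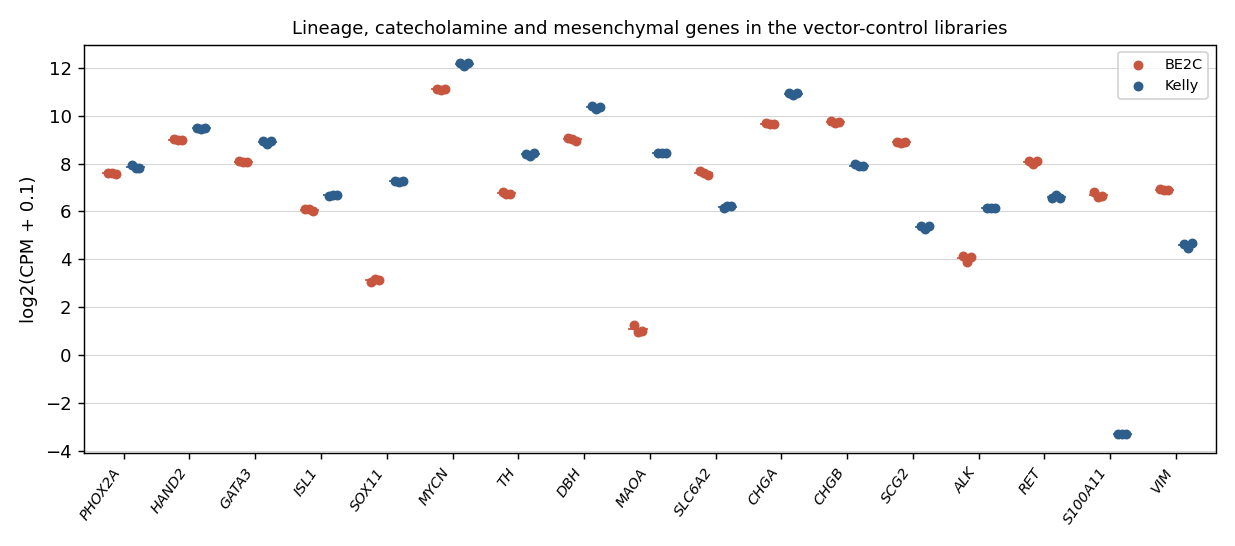
Level of 17 genes in each vector-control library as log2(CPM + 0.1), with BE2C (red) left of Kelly (blue) for each gene, points for libraries and short lines for means. The 3 points of a line nearly coincide, and SOX11 and MAOA are far lower in BE2C while SCG2, S100A11 and VIM are higher.

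MYCN itself (chromosome 2, 15940564–15947007, plus strand) was abundant in both lines. It had 2239.9, 2175 and 2216 CPM in the BE2C libraries, against 4698, 4336 and 4690.4 CPM in the Kelly libraries, and was 2.07-fold lower in BE2C (−1.05 ± 0.029), a call against 0 (adjusted p = 3.04e-24) but not against 2-fold (adjusted p = 0.0505). It passed that test in 6 of the alternatives for the control comparison, among them the fit of all 18 libraries. The edgeR adjusted p was 0.0367 with the replicate block and 0.000448 without the second Kelly library. In the other alternatives for that comparison, such as RLE scaling and halved counts, MYCN was not called against 2-fold. It had −0.31 between the shAhR-1 libraries and −1.41 between the shAhR-2 libraries. DDX1, an RNA helicase gene beside MYCN that is often amplified with it, had 306 ± 13.5 CPM in BE2C and 337 ± 14.2 CPM in Kelly (−0.14 ± 0.034), and 0.0568 between the shAhR-1 libraries. Genes a little further out differed far more. CYRIA (chromosome 2, 16549459–16666331, minus strand) had 0.0976, 0.0954 and 0 CPM in the BE2C libraries, against 18.6, 19.3 and 17.6 CPM in the Kelly libraries, and LRATD1 (chromosome 2, 14632686–14650814, plus strand) had 0.146, 0.0477 and 0 CPM in the BE2C libraries, against 22.8, 20.4 and 22.2 CPM in the Kelly libraries. Both were near 0 in every BE2C library and well expressed in every Kelly library. VSNL1, encoding a neuronal calcium sensor, was lower in BE2C too (−2.96 ± 0.18), whereas HPCAL1 of the same protein family was higher (1.22 ± 0.059). Of 39 listed genes on the 2p arm around MYCN 34 were tested, 1 higher and 8 lower. Of MYCN and the partners of MYC proteins none of 11 tested genes of 13 listed passed 2-fold, and the one with the most counts apart from MYCN was the MAX partner gene MGA at 119.8 ± 1.92 CPM in BE2C and 129.7 ± 8.0 CPM in Kelly.

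The core of MYC's DNA motif, CACGTG, which reads the same on both strands, was counted in the 250 bases before the start of each protein-coding gene tested, in RefSeq promoter sequences (GRCh38.p14). It occurred in 7.69% of 1092 promoters of genes higher in BE2C and 7.76% of 1611 promoters of genes lower in BE2C, against 8.95% of all 10760 promoters. A match is only a match of letters in this window.

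Several noradrenaline genes were lower in BE2C. Of 17 listed genes of catecholamine synthesis, storage and breakdown 15 were tested, 2 higher and 5 lower, with a median of −0.63. TH, the rate-limiting enzyme of the pathway, had 112, 106 and 106 CPM in the BE2C libraries, against 338, 319 and 345 CPM in the Kelly libraries (−1.63 ± 0.035). DBH, which forms noradrenaline, had 540.5, 518 and 487 CPM in the BE2C libraries, against 1340.2, 1263 and 1316 CPM in the Kelly libraries (−1.34 ± 0.033). Neither gene's libraries overlapped between the lines, but in the shAhR-1 libraries the fitted values were 0.12 for TH and 1.01 for DBH, the opposite direction. MAOA, the mitochondrial monoamine oxidase that breaks down noradrenaline, was at 2.24, 1.86 and 1.92 CPM in the BE2C libraries, against 344, 347 and 347 CPM in the Kelly libraries, and was 172-fold lower in BE2C (−7.43 ± 0.056). SLC18A2, the vesicle transporter of monoamines, was lower as well (−2.64 ± 0.061). SLC6A2, the noradrenaline transporter through which the tracer MIBG enters tumour cells, went the other way, with 207, 196 and 184 CPM in the BE2C libraries, against 69.9, 75.6 and 73.7 CPM in the Kelly libraries (1.42 ± 0.041), as did PTS of tetrahydrobiopterin synthesis (1.24 ± 0.054). Of the list 3 genes were lower between the shAhR-1 libraries, where SLC6A2 and PTS stayed higher at 1.87 and 1.27. Between the shAhR-2 libraries 1 was higher and 8 were lower.

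The secretory cargo of the lines differed in kind. Of 14 granin and prohormone genes 11 were tested, 5 higher and 2 lower. CHGA, the chromogranin measured in blood as a tumour marker, was lower in BE2C, with 804 ± 12.1 CPM in BE2C and 1924 ± 70.2 CPM in Kelly (−1.26 ± 0.029). CHGB, its relative, was higher, with 847 ± 18.6 CPM in BE2C and 241 ± 7.72 CPM in Kelly (1.82 ± 0.031), and so were secretogranin II, SCG2, with 475 ± 7.27 CPM in BE2C and 40.5 ± 1.51 CPM in Kelly (3.55 ± 0.036), and VGF, a nerve growth factor-induced granin, with 174 ± 9.59 CPM in BE2C and 12.4 ± 1.41 CPM in Kelly (3.81 ± 0.058). CPE, the carboxypeptidase that trims prohormones, had 0.195, 0.0954 and 0.0492 CPM in the BE2C libraries, against 53.1, 50.4 and 51.4 CPM in the Kelly libraries. It was all but missing from every BE2C library.

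Several peptide genes were high in one line and low in the other. Of 39 listed neuropeptide genes 14 were tested, 6 higher and 4 lower, and the highest level among the genes left out was 0.512 CPM in any library. VIP, vasoactive intestinal peptide, had 74.2, 76 and 68.9 CPM in the BE2C libraries, against 0.473, 0.514 and 0.581 CPM in the Kelly libraries. NPY, neuropeptide Y of sympathetic neurons, had 55.5 ± 3.51 CPM in BE2C and 2.35 ± 0.443 CPM in Kelly (4.56 ± 0.094), and CRH, corticotropin-releasing hormone, 31.8 ± 1.74 CPM in BE2C and 3.95 ± 0.157 CPM in Kelly (3.01 ± 0.089). Kelly instead held SST, somatostatin, at 2.06 CPM in BE2C, against 33.9 CPM in Kelly (−4.04 ± 0.11), CARTPT at 0.485 CPM in BE2C, against 30.7 CPM in Kelly (−5.97 ± 0.13) and TAC3, neurokinin B, at 0.0328 CPM in BE2C, against 4.18 CPM in Kelly. GAL, galanin, had the most counts of the tested peptides and was present in both lines, at 149.7 ± 4.03 CPM in BE2C and 95.8 ± 2.49 CPM in Kelly (0.64 ± 0.036). ADCYAP1, the PACAP gene, was higher in the BE2C controls (1.44 ± 0.17), a call that DESeq2 did not make (adjusted p = 0.1), and had −1.41 and −0.54 between the shAhR-1 and the shAhR-2 libraries.

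Receptors and ligands of neuroblast survival split between the lines. Of 30 listed genes 23 were tested, 5 higher and 7 lower. ALK (chromosome 2, 29192774–29921566, minus strand), the receptor tyrosine kinase mutated in part of these tumours, had 17.5, 14.7 and 17 CPM in the BE2C libraries, against 70.1, 71.2 and 70.6 CPM in the Kelly libraries (−2.11 ± 0.060). RET, the GDNF family receptor kinase, had 278, 250.1 and 274 CPM in the BE2C libraries, against 94.9, 104 and 94.1 CPM in the Kelly libraries (1.46 ± 0.041). GFRA1, the co-receptor that binds GDNF for RET, had 0.0488, 0.238 and 0.0984 CPM in the BE2C libraries, against 64.9, 65.7 and 68.4 CPM in the Kelly libraries. Thus the BE2C libraries held more of the kinase and next to none of this co-receptor. The heparin-binding growth factors PTN and MDK were opposite, PTN with 87.9 ± 1.55 CPM in BE2C and 4.45 ± 0.355 CPM in Kelly (4.30 ± 0.066) and MDK with 33.4 ± 2.69 CPM in BE2C and 306 ± 9.55 CPM in Kelly (−3.19 ± 0.044). NGFR, the low-affinity neurotrophin receptor, was lower (−2.93 ± 0.27) but had 1.42 between the shAhR-2 libraries.

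Among markers of nerve cell structure the neurofilament genes differed from each other in direction. All 31 listed genes were tested, 4 higher and 5 lower, with a median of 0.16. The medium and light neurofilament genes were higher in BE2C, NEFM with 498 ± 5.27 CPM in BE2C and 108 ± 3.65 CPM in Kelly (2.21 ± 0.032) and NEFL with 254 ± 1.9 CPM in BE2C and 73.4 ± 1.05 CPM in Kelly (1.79 ± 0.034). NEFH, the heavy chain, had 14.3, 13.8 and 15.6 CPM in the BE2C libraries, against 507, 537 and 491 CPM in the Kelly libraries (−5.14 ± 0.046). NEFM had −0.07 between the shAhR-2 libraries, where 1 gene of the list was higher and 8 were lower. The RNA-binding protein gene ELAVL2 (−3.04 ± 0.062), the stathmin gene STMN4 (−3.25 ± 0.16) and the reticulon gene RTN1, with 0.0484 ± 0.0488 CPM in BE2C, against 14.5 ± 1.21 CPM in Kelly, were lower. TUBA1A and MAP1B, with the most counts of the list, differed by 0.16 ± 0.033 and 0.14 ± 0.028, which turned to −0.29 for TUBA1A in the shAhR-1 libraries and −0.38 for MAP1B in the shAhR-2 libraries.

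Some genes of the mesenchymal state were higher in BE2C and others lower. Of 39 listed genes 27 were tested, 9 higher and 5 lower, with a median of 0.15. VIM, vimentin, had 122, 119 and 120.3 CPM in the BE2C libraries, against 24.9, 22.2 and 25.6 CPM in the Kelly libraries (2.31 ± 0.049), and SNAI2, a factor of migrating neural crest, 9.75 ± 0.722 CPM in BE2C and 0.36 ± 0.0531 CPM in Kelly (4.76 ± 0.19). IFI16, a DNA sensor, had 5.62 ± 1.25 CPM in BE2C, against 0.0168 ± 0.0292 CPM in Kelly. The direction was not shared by the list, since CD44 with 5.66 ± 0.281 CPM in BE2C and 45.5 ± 1.08 CPM in Kelly (−3.01 ± 0.075), the receptor NOTCH3 with 0.922 ± 0.0628 CPM in BE2C and 28.8 ± 1.29 CPM in Kelly (−4.96 ± 0.12), the coactivator YAP1 (−2.71 ± 0.29) and TBX18 (−1.83 ± 0.24) were lower in BE2C. TBX18 turned to 3.59 between the shAhR-2 libraries, where 20 genes of the list were higher and 2 lower. That fit also tested genes of the list left out in the controls, so the counts do not cover the same genes. The homeobox gene PRRX1 and the coactivator gene WWTR1, both typical of the mesenchymal state, were too low to test in the controls. Between the shAhR-2 libraries they had 5.85 and 2.82. The 10 fibroblast markers summed to 166 to 170.1 CPM in BE2C and 112 to 119 CPM in Kelly. Of the 7 tested 4 were higher and 2 lower, with a median of 1.66. LUM, lumican, was at 49.6 ± 2.68 CPM in BE2C, against 0.539 ± 0.31 CPM in Kelly. PDGFRB, one of those lower, was at 35 ± 1.79 CPM in BE2C, against 81 ± 3.69 CPM in Kelly. Their part in the mesenchymal values was not tested.

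Kelly had no count of 3 genes for calcium-binding proteins of the S100 family. S100A11 (chromosome 1, 152032506–152047907, minus strand) had 112, 97.5 and 100.2 CPM in the BE2C libraries and no count in any Kelly library. S100A10 (chromosome 1, 151982915–151994390, minus strand) had 32, 31.9 and 30.5 CPM in BE2C, and S100A6 (chromosome 1, 153534599–153536244, minus strand) 17.4, 21.6 and 18.6 CPM, and again no count in Kelly. Against a floor of 3 counts over the 3 Kelly libraries, S100A11 was at least 4431-fold, S100A10 at least 1352-fold and S100A6 at least 824-fold higher in BE2C. All 3 lie on the long arm of chromosome 1, S100A10 and S100A11 close together and S100A6 further along. The genes between them were not examined here. The promoters of these 3 S100 genes are shown because each had counts in BE2C and none in Kelly. They are given as the 250 bases before the RefSeq start (GRCh38.p14), 5′ to 3′ on the gene's strand. Each CG dinucleotide, the site of DNA methylation, is in capitals.
S100A6, chr1:153535992-153536241, minus strand: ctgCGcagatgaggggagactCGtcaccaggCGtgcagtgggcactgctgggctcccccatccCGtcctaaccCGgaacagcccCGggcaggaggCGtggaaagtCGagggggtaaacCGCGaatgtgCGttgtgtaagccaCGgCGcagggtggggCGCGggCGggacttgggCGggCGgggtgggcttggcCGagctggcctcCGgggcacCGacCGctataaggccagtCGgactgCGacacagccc
S100A10, chr1:151993860-151994109, minus strand: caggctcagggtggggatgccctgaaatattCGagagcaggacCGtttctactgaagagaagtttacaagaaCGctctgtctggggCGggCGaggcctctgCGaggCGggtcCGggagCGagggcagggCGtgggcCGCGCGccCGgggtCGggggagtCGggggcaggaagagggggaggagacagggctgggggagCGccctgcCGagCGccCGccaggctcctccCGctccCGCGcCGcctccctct
S100A11, chr1:152037005-152037254, minus strand: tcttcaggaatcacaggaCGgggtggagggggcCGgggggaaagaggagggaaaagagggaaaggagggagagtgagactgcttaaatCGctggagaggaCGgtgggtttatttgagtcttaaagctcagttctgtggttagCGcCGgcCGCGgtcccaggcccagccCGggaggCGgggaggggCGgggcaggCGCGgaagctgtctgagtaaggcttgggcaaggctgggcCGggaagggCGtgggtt
These windows hold 24, 24 and 15 CG dinucleotides, against a median of 21 over the promoters of all protein-coding genes tested. Methylation was not measured, and nothing follows from these letters about it.

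Leaving out genes that reveal sex, 23 genes had a mean of at least 5 CPM in BE2C and no count in any Kelly library. Conversely, 61 had at least 5 CPM in Kelly and no count in any BE2C library. The highest CPM among those of BE2C belonged to TDRD1 (chromosome 10, 114179270–114232304, plus strand), a Tudor-domain gene of the germline piRNA pathway, with 147, 158 and 154 CPM. It was at least 6572-fold higher. B3GALNT1, a glycosyltransferase of globoside synthesis, had 85.8 ± 1.76 CPM in BE2C, SEPTIN14 56 ± 2.16, ITPRIPL1 43.6 ± 2.21 and the fucosidase gene FUCA2 22.6 ± 0.787. Among those of Kelly LAMA1 (chromosome 18, 6941744–7117814, minus strand), the laminin chain of early basement membranes, had 127, 135 and 127 CPM and was at least 5332-fold lower in BE2C. PAWR, a pro-apoptotic gene, had 71.9 ± 3.06 CPM in Kelly, DSG2, a desmosomal cadherin, 57.9 ± 1.26, DOCK10, a guanine nucleotide exchange factor, 51 ± 1.54, SYT6, a synaptotagmin, 37 ± 1.21, and DAB1, the adaptor through which reelin acts, 31.4 ± 0.479. RELN, reelin itself, went the other way, with 609, 630.4 and 622 CPM in the BE2C libraries, against 0.387, 0.187 and 0.253 CPM in the Kelly libraries. The line with reelin thus had no count of its adaptor. GSTM1, with 30.9 ± 2.38 CPM in Kelly, shares 38.3% of its exonic bases with other genes and has near-identical relatives, so its counts are uncertain. The 14 promoters found for the genes seen only in BE2C had a median of 15 CG dinucleotides and the 40 for the genes seen only in Kelly a median of 19, against 21 for all protein-coding genes tested. Protein-coding genes higher in BE2C beyond 2-fold had a median of 20 and those lower 19. Promoters were found for only 60.9% and 65.6% of the genes seen in BE2C or in Kelly alone, and these sets include noncoding genes. All these counts of 0 are those of the control libraries. With hairpins some fitted fold changes were smaller, such as FUCA2 at 12.9 in the controls and 7.98 with shAhR-1. SYT6 had −13.6 in the controls and −8.58 with shAhR-2, whereas TDRD1 had 15.7 in the controls, 15.2 with shAhR-1 and 14.8 with shAhR-2.

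Along the HOXC cluster of chromosome 12 the lines were alike at one end and differed at the other. HOX genes give cells their position along the body axis, and higher numbers mark more posterior positions. HOXC4 had 45.8 ± 1.5 CPM in BE2C and 68.6 ± 3.09 CPM in Kelly (−0.58 ± 0.048) and HOXC8 14.3 ± 1.44 CPM in BE2C and 27.5 ± 1.14 CPM in Kelly (−0.94 ± 0.078), and HOXC6 (−0.68 ± 0.080) and HOXC9 (−0.68 ± 0.097) were also present in both lines, and none of these 4 passed the test against 2-fold. HOXC10 (chromosome 12, 53985065–53990279, plus strand) had 39.6, 38 and 37.7 CPM in the BE2C libraries, against 0.58, 0.187 and 0.429 CPM in the Kelly libraries (6.57 ± 0.14). HOXC11 had 5.12, 5.22 and 5.86 CPM in the BE2C libraries and no count in Kelly, at least 232-fold higher, HOXC12 2.44, 1.81 and 1.82 CPM and no count in Kelly, and HOXC13 4.1 CPM in BE2C, against 0.206 CPM in Kelly (4.27 ± 0.31). HOTAIR, the long noncoding RNA transcribed between HOXC11 and HOXC12, had 24.5, 22.9 and 26.3 CPM in BE2C and no count in Kelly. HOXC11 and HOTAIR lie on opposite strands and the strand setting of the counting is not given in the sources used here, so reads shared between overlapping genes cannot be told apart. Of 39 listed HOX genes 17 were tested, 5 higher and 3 lower. Besides HOXC10 to HOXC13, HOXA13 of another cluster was higher, at 9.03 in the controls, 8.53 with shAhR-1 and 8.74 with shAhR-2. Those lower were HOXD8 (−1.31 ± 0.12), HOXD9 (−1.36 ± 0.092) and HOXD13 (−1.20 ± 0.079). HOXD8 lost its call without the second BE2C library (edgeR adjusted p = 0.0922), and DESeq2 called neither HOXD8 (adjusted p = 0.113) nor HOXD13 (0.0959). Between the shAhR-2 libraries 9 HOX genes were higher, in a fit that also tested genes left out in the controls, such as HOXD11 (5.86) and HOXD12 (5.44). No HOXB gene passed the filter.

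**Figure D3:**
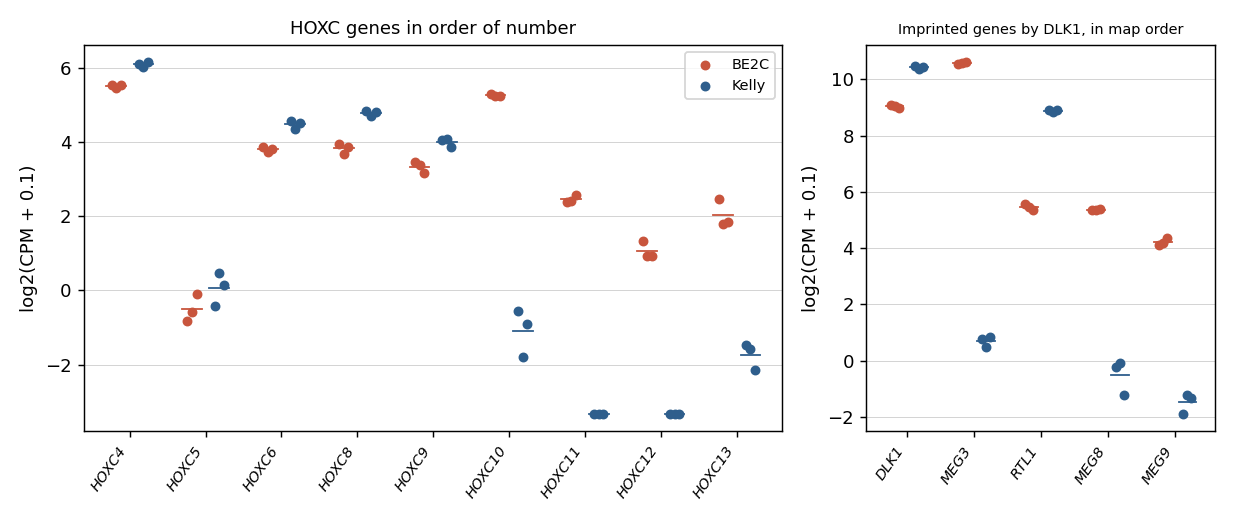
Level of the HOXC genes (left) and of 5 imprinted genes of chromosome 14 in map order (right) in each vector-control library as log2(CPM + 0.1), with BE2C (red) left of Kelly (blue). HOXC4 to HOXC9 are at like levels while HOXC10 to HOXC13 are at or near 0 in Kelly, and MEG3, MEG8 and MEG9 are high in BE2C while DLK1 and RTL1 are higher in Kelly.

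Imprinted genes, which are read from the maternal or the paternal copy alone, split by parent of origin on chromosome 14. MEG3 (chromosome 14, 100779410–100861031, plus strand), a maternally expressed long noncoding RNA, had 1499, 1524 and 1565 CPM in the BE2C libraries, against 1.59, 1.29 and 1.69 CPM in the Kelly libraries, and was 1004-fold higher in BE2C (9.97 ± 0.054). MEG8 (5.98 ± 0.13) and MEG9 (6.12 ± 0.18), from the same maternal cluster, were higher with it. The paternally expressed genes between and beside them were lower in BE2C, RTL1 with 44 ± 2.9 CPM in BE2C and 474 ± 15.5 CPM in Kelly (−3.43 ± 0.041) and DLK1, a Notch-related surface protein, with 529 ± 22.4 CPM in BE2C and 1384 ± 58 CPM in Kelly (−1.39 ± 0.033). Elsewhere in the genome MEST at 0.569 CPM in BE2C, against 68.2 CPM in Kelly (−6.90 ± 0.12), the adaptor GRB10 at 2.09 CPM in BE2C, against 112 CPM in Kelly (−5.74 ± 0.074) and the zinc finger gene PEG3 at 0.236 CPM in BE2C, against 9.93 CPM in Kelly (−5.38 ± 0.22) were lower too. Of 29 listed imprinted genes 22 were tested, 4 higher and 8 lower. GNAS, with the most counts, had 2047 ± 37.2 CPM in BE2C and 2699.8 ± 37.2 CPM in Kelly (−0.40 ± 0.026) and turned to 0.32 between the shAhR-2 libraries.

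Host genes of microRNAs differed, though the mature microRNAs themselves were not measured in these libraries. A microRNA recognises its targets mainly through its seed, bases 2 to 8, given in capitals in the mature sequences below (RefSeq, 5′ to 3′), which were placed by their position and strand within each host. MIR34AHG (chromosome 1, 9148011–9198906, minus strand), the host of the tumour suppressor miR-34a, had no count in BE2C and 57.9, 62.3 and 61 CPM in the Kelly libraries, and was at least 2488-fold lower in BE2C.
hsa-miR-34a-5p: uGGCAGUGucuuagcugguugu
MIR17HG, the host of the MYC-induced miR-17-92 cluster, had 6.98, 7.15 and 8.49 CPM in the BE2C libraries, against 21.6, 25.6 and 22.7 CPM in the Kelly libraries (−1.63 ± 0.094). The mature forms shown, 1 from each of its 6 hairpins, have 4 seeds, shared by miR-17 with miR-20a and by miR-19a with miR-19b.
hsa-miR-17-5p: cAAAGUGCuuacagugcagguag
hsa-miR-20a-5p: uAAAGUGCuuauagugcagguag
hsa-miR-18a-5p: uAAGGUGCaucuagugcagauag
hsa-miR-19a-3p: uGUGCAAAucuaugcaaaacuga
hsa-miR-19b-3p: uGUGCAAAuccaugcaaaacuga
hsa-miR-92a-3p: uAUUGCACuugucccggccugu
MIR99AHG, the host of miR-99a, let-7c and miR-125b, had 4.93, 6.96 and 6.5 CPM in the BE2C libraries, against 0.322, 0.14 and 0.152 CPM in the Kelly libraries (4.86 ± 0.27), the opposite direction to MIR17HG.
hsa-miR-99a-5p: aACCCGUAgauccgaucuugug
hsa-let-7c-5p: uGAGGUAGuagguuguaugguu
hsa-miR-125b-5p: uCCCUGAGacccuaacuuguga
The promoter of MIR34AHG is shown because the host had no count in the BE2C control libraries. Its fitted fold change was −14.3 in the controls, −10.3 between the shAhR-1 libraries and −7.42 between the shAhR-2 libraries. The 37 CG dinucleotides in the 250 bases before the RefSeq start are in capitals.
MIR34AHG, chr1:9182339-9182588, minus strand: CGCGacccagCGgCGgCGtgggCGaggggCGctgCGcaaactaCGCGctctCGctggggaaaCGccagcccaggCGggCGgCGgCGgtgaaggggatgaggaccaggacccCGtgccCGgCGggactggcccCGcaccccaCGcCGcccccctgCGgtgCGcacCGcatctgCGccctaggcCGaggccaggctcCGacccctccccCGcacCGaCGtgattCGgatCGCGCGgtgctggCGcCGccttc

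LIN28B, which blocks maturation of let-7 microRNAs and is amplified in some neuroblastomas, differed by less than 2-fold, with 213 ± 6.13 CPM in BE2C and 280.3 ± 4.5 CPM in Kelly (−0.40 ± 0.031). Other genes of the embryonic program differed more. SALL4, a stem cell zinc finger gene, had 0.244, 0.238 and 0.0984 CPM in the BE2C libraries, against 70.3, 68 and 68.5 CPM in the Kelly libraries, TRIM71, itself a let-7 target, 7.07 ± 0.476 CPM in BE2C and 68.7 ± 1.6 CPM in Kelly (−3.28 ± 0.066), and IGF2BP1, an RNA-binding protein of fetal tissues, 403 ± 8.23 CPM in BE2C and 972 ± 10.8 CPM in Kelly (−1.27 ± 0.028). Of the terminal uridylyl transferases that act on let-7 precursors, TUT4 was lower (−1.32 ± 0.040) and TUT7 higher (1.55 ± 0.077). Of 21 listed genes 17 were tested, 3 higher and 7 lower, with a median of −0.71. The telomerase gene TERT was low and lower still in BE2C, with 0.854, 0.906 and 0.812 CPM in the BE2C libraries, against 7.88, 9.63 and 9.29 CPM in the Kelly libraries (−3.38 ± 0.17), and ATRX, the chromatin remodeller lost in tumours that maintain telomeres without telomerase, had 206 ± 5.23 CPM in BE2C and 192 ± 4.08 CPM in Kelly (0.10 ± 0.032), turning to −0.17 and −0.41 between the shAhR-1 and the shAhR-2 libraries.

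Cancer-testis antigens, germline genes, many on the X chromosome, that tumours can switch on, were largely read in Kelly. Of 40 listed genes 12 were tested, 1 higher and 10 lower. MAGEA10 had no count in BE2C and 87.1, 86.4 and 87 CPM in the Kelly libraries, and MAGEA1 no count in BE2C and 65.4, 57.6 and 56.5 CPM in Kelly. They were at least 3576-fold and at least 2465-fold lower in BE2C. PRAME, a melanoma antigen on chromosome 22, had 0.293, 0.191 and 0.492 CPM in the BE2C libraries, against 142, 137 and 138 CPM in the Kelly libraries. CTAG2 had no count in BE2C and 4.76 ± 1.15 CPM in Kelly. MAGEB2 was the exception, with 40.7, 40.3 and 37 CPM in BE2C and no count in Kelly, at least 1691-fold higher. TEX15, a gene of meiosis, was read in both lines, at 69.1 ± 4.56 CPM in BE2C and 143 ± 5.56 CPM in Kelly (−1.05 ± 0.043). The MAGEA and GAGE genes have near-identical copies between which reads can be split, so values of single members are uncertain.

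Genes of the DNA damage response that act in cell cycle arrest and death were in part lower in BE2C. All 24 listed genes were tested, 0 higher and 10 lower by edgeR's test against 2-fold, with a median of −0.83, and against 0 4 were higher and 19 lower. CDKN1A, the cell cycle inhibitor p21, had 3.95, 3.81 and 3.91 CPM in the BE2C libraries, against 50.5, 50.2 and 46.4 CPM in the Kelly libraries (−3.65 ± 0.079). TNFRSF10B, the death receptor DR5, had 2.54, 2.79 and 3.05 CPM in the BE2C libraries, against 81, 84.1 and 78 CPM in the Kelly libraries (−4.86 ± 0.075). PHLDA3, an AKT inhibitor, had 4 counts over the 3 BE2C libraries and 2191 over the 3 Kelly libraries. BBC3, which encodes PUMA, was lower (−2.56 ± 0.17), and the ubiquitin ligase gene MDM2 differed little (0.26 ± 0.038), as did BAX (−0.29 ± 0.040). In the BCL2 family, BCL2L11, encoding BIM, was higher (1.40 ± 0.093) and the death genes HRK (−1.97 ± 0.072) and BOK (−3.96 ± 0.12) lower, while MCL1, with the most counts, had 327 ± 1.24 CPM in BE2C and 262 ± 3.0 CPM in Kelly (0.32 ± 0.029).

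Several genes of interferon response and antigen presentation were higher in BE2C. Of 37 listed genes of interferon response and antigen presentation 22 were tested, 10 higher and 1 lower, with a median of 1.05. B2M, the light chain of class I molecules, had 138, 144 and 149 CPM in the BE2C libraries, against 45.6, 44.6 and 45.8 CPM in the Kelly libraries (1.66 ± 0.041). NLRC5, the transactivator of class I genes, had 8.01 ± 0.632 CPM in BE2C and 2.53 ± 0.077 CPM in Kelly (1.66 ± 0.14), and the antiviral synthetase OAS3 79.98 ± 5.0 CPM in BE2C and 11.4 ± 0.252 CPM in Kelly (2.81 ± 0.060). STAT2 was the member lower in BE2C (−1.18 ± 0.080), at 0.09 between the shAhR-2 libraries, and its call was lost without the second Kelly library (edgeR adjusted p = 0.0882) and with DESeq2 (adjusted p = 0.178). HLA genes are similar in sequence and vary between people, so their counts depend on how well reads matched the reference.

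Cyclin D and CDK genes went in different directions. CCND1, cyclin D1, had 935, 837 and 878 CPM in the BE2C libraries, against 273, 281 and 280.5 CPM in the Kelly libraries (1.67 ± 0.034). CDK6 had 187, 207 and 204 CPM in the BE2C libraries, against 632, 638 and 653 CPM in the Kelly libraries (−1.68 ± 0.034), while CDK4, its close relative, was higher, with 209 ± 5.96 CPM in BE2C and 90.8 ± 3.33 CPM in Kelly (1.20 ± 0.036). Of the inhibitors, CDKN2B had 5.14 ± 0.244 CPM in BE2C, against 0.0636 ± 0.071 CPM in Kelly, and CDKN2A 10.5 ± 0.645 CPM in BE2C and 3.36 ± 0.573 CPM in Kelly (1.64 ± 0.13). Of 26 listed genes of the G1 phase 25 were tested, 7 higher and 4 lower. Among 31 genes of S phase and mitosis 3 were higher and 0 lower, namely MCM7 (1.24 ± 0.031), BUB1 (1.14 ± 0.046) and TPX2 (1.07 ± 0.028, lost without the third Kelly library at an edgeR adjusted p = 0.0541), and 24 and 6 passed the test against 0 in each direction. MKI67, the proliferation antigen, had 888 ± 24.4 CPM in BE2C and 574 ± 13.2 CPM in Kelly (0.63 ± 0.029), and −0.05 between the shAhR-1 libraries. Of the S phase and mitosis genes 0 were higher and 3 lower by edgeR's test against 2-fold between the shAhR-1 libraries, and 20 were higher between the shAhR-2 libraries. In bulk RNA, fewer cycling cells and less RNA per cell cannot be told apart.

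Most tested collagen chains were lower in BE2C. Of 40 listed chains 26 were tested, 2 higher and 14 lower, with a median of −1.57. COL6A1 had 36.5, 37.8 and 34.8 CPM in the BE2C libraries, against 209, 189.9 and 215 CPM in the Kelly libraries (−2.49 ± 0.045) and COL4A2, of basement membranes, 16.6, 17.3 and 16.9 CPM in the BE2C libraries, against 103, 105 and 103 CPM in the Kelly libraries (−2.62 ± 0.049). COL2A1, the cartilage collagen, had 0.162 ± 0.0252 CPM in BE2C, against 15.4 ± 0.269 CPM in Kelly. COL1A1, at 1.45 ± 0.301 CPM in BE2C and 9.84 ± 0.624 CPM in Kelly (−2.76 ± 0.15), was reversed in the libraries with hairpins, at 0.56 with shAhR-1 and 1.97 with shAhR-2. COL3A1 was higher in BE2C (2.05 ± 0.20). Of the list 5 genes were higher between the shAhR-1 libraries, where COL6A1, COL4A2 and COL2A1 stayed lower at −1.67, −2.83 and −5.71. Between the shAhR-2 libraries 8 were higher and 9 lower.

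**Figure D4:**
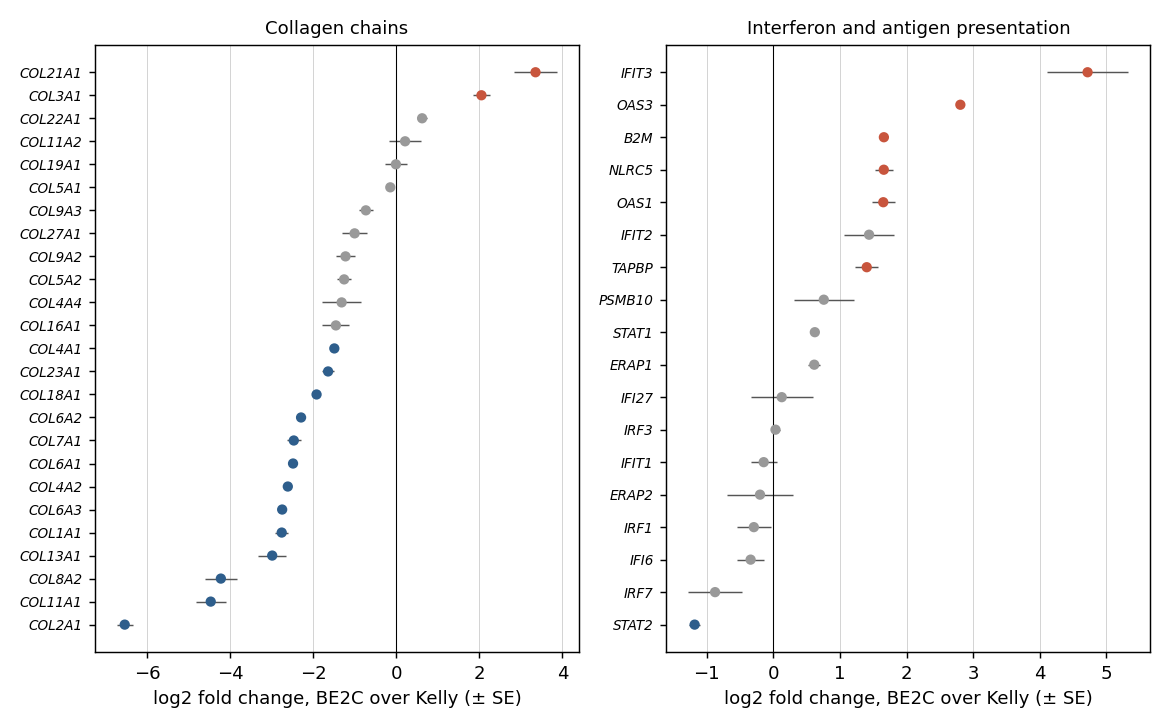
Log2 fold change of BE2C over Kelly ± SE for collagen chains (left) and for genes of interferon response and antigen presentation other than HLA genes (right), each with counts in both lines. Red and blue points passed the test against 2-fold and grey points did not. Most collagen chains lie below 0, COL6A1 at −2.49, and B2M lies at 1.66.

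Their receptors and the cell contacts differed member by member. Of 27 integrin and laminin genes tested of 30 listed, 5 were higher and 10 lower. ITGA8 had 38.2, 40.3 and 37.3 CPM in the BE2C libraries, against 0.602, 0.467 and 0.505 CPM in the Kelly libraries (6.19 ± 0.12), and ITGA4, a fibronectin and VCAM1 receptor of neural crest, 2 counts over the 3 BE2C libraries and 14.2 ± 0.684 CPM in Kelly. ITGB1, the common beta chain, was close, at 303 ± 7.0 CPM in BE2C and 196 ± 5.62 CPM in Kelly (0.63 ± 0.032). Of the cadherins 23 of 33 were tested, 7 higher, such as CDH6 (4.02 ± 0.16), PCDH10 (3.61 ± 0.11) and PCDH9 (3.10 ± 0.065), and 7 lower, such as CDH11 with 12.1 ± 0.639 CPM in BE2C and 133 ± 9.75 CPM in Kelly (−3.46 ± 0.058) and PCDH19 with 1.65 ± 0.199 CPM in BE2C and 66 ± 2.43 CPM in Kelly (−5.32 ± 0.086). CDH2, the neural cadherin, had the most counts, at 233 ± 2.62 CPM in BE2C and 144 ± 2.3 CPM in Kelly.

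Clustered protocadherins, of which each neuron reads a small set to tell itself from others, were expressed in part by different members. Of 53 listed genes 49 were tested, 13 higher and 6 lower. PCDHA10 had 14.4 ± 0.201 CPM in BE2C and 1.0 ± 0.27 CPM in Kelly (3.84 ± 0.15) and PCDHB16 15.5 ± 0.477 CPM in BE2C and 4.75 ± 0.252 CPM in Kelly (1.71 ± 0.10), while PCDHB5 had 0.187 ± 0.155 CPM in BE2C and 16.8 ± 1.31 CPM in Kelly (−6.48 ± 0.21) and PCDHGB5 0.187 ± 0.0728 CPM in BE2C and 15.3 ± 0.867 CPM in Kelly (−6.34 ± 0.19). The alpha and gamma genes share their last exons within a cluster, so their counts are uncertain. Between the shAhR-2 libraries 23 genes of the list were higher.

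Guidance genes of the ephrin system were largely lower in BE2C. Of 22 listed genes 19 were tested, 3 higher and 12 lower, with a median of −2.96. EPHB3 had 5.73, 6.72 and 5.83 CPM in the BE2C libraries, against 97.3, 91.4 and 93.8 CPM in the Kelly libraries (−3.95 ± 0.064), EPHB2 18.3 ± 1.05 CPM in BE2C and 60.6 ± 3.66 CPM in Kelly (−1.73 ± 0.061), the ligand EFNB3 1.29 ± 0.0682 CPM in BE2C and 21 ± 0.922 CPM in Kelly (−4.02 ± 0.12) and EPHA7 0.276 ± 0.0773 CPM in BE2C and 10.7 ± 1.22 CPM in Kelly (−5.27 ± 0.20). EPHA5 was higher in BE2C (1.53 ± 0.17).

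Among ligand-gated channels more were lower than higher in BE2C. Of 44 receptor subunit genes 30 were tested, 5 higher and 14 lower, with a median of −1.12. GRIA1, an AMPA receptor subunit, had 2 counts over the 3 BE2C libraries and 28.9 ± 1.77 CPM in Kelly. GLRB, the glycine receptor beta subunit, had no count in BE2C and 7.36 ± 0.724 CPM in Kelly. GRIN3A was higher in BE2C, at 15.9 ± 0.185 CPM in BE2C and 1.06 ± 0.253 CPM in Kelly (3.91 ± 0.14). CHRNA3, the nicotinic subunit of sympathetic ganglia, was abundant in both, at 272 ± 12.3 CPM in BE2C and 496 ± 11.1 CPM in Kelly (−0.87 ± 0.032), the listed subunit with the most counts in the control libraries.

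In the TGF-beta and BMP pathway the ligand genes TGFB1, TGFB2 and BMP7 were lower and the inhibitory SMAD genes higher in BE2C. Of 36 listed genes 28 were tested, 8 higher and 5 lower. BMP7 had 1.37, 1.43 and 0.689 CPM in the BE2C libraries, against 154, 149 and 156 CPM in the Kelly libraries (−7.03 ± 0.086), TGFB1 6.08 ± 0.52 CPM in BE2C and 65.3 ± 5.75 CPM in Kelly (−3.43 ± 0.077) and TGFB2 0.233 ± 0.142 CPM in BE2C and 6.11 ± 0.414 CPM in Kelly (−4.69 ± 0.26). ID1, a direct target of BMP signals, had 85.1, 75.5 and 76.7 CPM in the BE2C libraries, against 9.54, 10.9 and 9.88 CPM in the Kelly libraries (2.97 ± 0.064), SMAD6 86.2 ± 5.83 CPM in BE2C and 20.5 ± 3.06 CPM in Kelly (2.07 ± 0.069) and SMAD7 18.4 ± 0.729 CPM in BE2C and 5.75 ± 0.388 CPM in Kelly (1.68 ± 0.096). TGFB1 was at 0.27 between the shAhR-2 libraries, where 14 genes of the list were higher and BMP7 and TGFB2 stayed lower at −7.21 and −3.19. In the Notch pathway 20 of 27 listed genes were tested, 2 higher, HEY1 and HES1 (3.12 ± 0.17), both target genes, and 8 lower, among them NOTCH3, the glycosyltransferase MFNG at 0.169 CPM in BE2C, against 23.7 CPM in Kelly (−7.10 ± 0.17) and the target genes HEYL (−2.98 ± 0.12) and NRARP (−2.74 ± 0.091).

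AHR (chromosome 7, 16916359–17346152, plus strand), the receptor that the hairpins of the series target, was barely read in either line. Its raw counts were 4, 4 and 6 in the BE2C libraries and 4, 26 and 29 in the Kelly libraries, and it did not pass the filter. The pooled rate in BE2C over Kelly was 0.248, with an exact 95% interval of 0.128 to 0.449 that covers counting error of the counts as deposited only. With halved counts, tried because both mates may be counted, the interval was 0.0903 to 0.566. The 2-sided exact permutation test over libraries gave p = 0.4, where 0.1 is the smallest value 3 against 3 can give. The first Kelly library overlapped the BE2C libraries. ARNT, the partner of the receptor, had 67.2 ± 3.41 CPM in BE2C and 100.1 ± 3.83 CPM in Kelly (−0.58 ± 0.043), and its relative ARNT2 5.88, 6.06 and 5.73 CPM in the BE2C libraries, against 65.9, 63.3 and 68 CPM in the Kelly libraries (−3.48 ± 0.067). Of 7 tested target genes of 10 listed 0 were higher and 2 lower by edgeR's test against 2-fold, TIPARP (−1.36 ± 0.091) and CYP1B1 (−3.90 ± 0.30), and 2 were higher and 2 lower against 0. The kinase gene SRC was lower in the controls (−1.19 ± 0.053) and reached 1.10 between the shAhR-2 libraries. Of 13 listed genes of the receptor complex and its partners 12 were tested, 3 higher and 2 lower, with a median of 0.01. Those higher were RELB (2.90), HSP90AA1 (1.26) and PTGES3 (1.10), and those lower were ARNT2 and SRC.

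Central metabolism differed at single enzymes. LDHA, which makes lactate, had 17.3, 20.5 and 17.8 CPM in the BE2C libraries, against 286, 296 and 290.2 CPM in the Kelly libraries and was 15.7-fold lower in BE2C (−3.97 ± 0.046), while PKM, one step before it, had 1338 ± 46.9 CPM in BE2C and 1082 ± 6.74 CPM in Kelly (0.31 ± 0.028). EPAS1, encoding HIF2 alpha, was lower, with 202 ± 10.1 CPM in BE2C and 761 ± 8.0 CPM in Kelly (−1.91 ± 0.033), and PFKFB3, a regulator of glycolysis, higher, with 51.1 ± 3.08 CPM in BE2C and 4.69 ± 0.777 CPM in Kelly (3.44 ± 0.086). Of 32 genes of glycolysis and hypoxia tested of 33 listed 4 were higher and 7 lower, and of 22 cholesterol genes 1 was higher, SC5D (1.82 ± 0.042), and 1 lower, TM7SF2 (−1.65 ± 0.12). PSAT1 of serine synthesis was higher, at 241 ± 2.77 CPM in BE2C and 66.3 ± 1.0 CPM in Kelly (1.86 ± 0.034), as was the stress gene DDIT3 (2.28 ± 0.11). Of 32 redox genes tested 3 were higher, such as GPX7 (3.85 ± 0.15), and 4 lower, such as MGST1 at 0.0241 CPM in BE2C, against 15.3 CPM in Kelly and HMOX1 (−1.90 ± 0.13), which had 1.00 between the shAhR-2 libraries. Of 27 chromatin genes 3 passed, all lower, the Polycomb genes CBX7 (−2.27 ± 0.20) and CBX2 (−1.08 ± 0.039) among them, and CBX2 lost its call without the second or the third BE2C library (edgeR adjusted p = 0.0583 and 0.219) or the first Kelly library (0.177), and with DESeq2 (0.349).

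Mitochondrial transcripts made up 19.1 ± 0.304% of counts in BE2C and 15.2 ± 0.616% in Kelly, a difference of 3.88 percentage points without overlap between the lines (exact permutation p = 0.1, the smallest that 3 against 3 allows). None of the 13 mitochondrially encoded mRNAs passed 2-fold, and by edgeR's test against 0 10 were higher and 0 lower.

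In some stretches of the chromosomes most neighbouring genes differed in the same direction. Over 950 overlapping windows of 50 genes with a mean of at least 5 CPM, the median log2 fold change was within 0.5 of 0 in 82.2%, above 1 in 2.63% and below −0.5 in 7.05%. Taking 1 window for each chromosome, the highest lay on chromosome 7 from GNB2 to ZNF277 (100673531–112343096), with a median of 1.71 and all 50 genes above 0. It held RELN, NRCAM, a neuronal adhesion gene with 457 ± 7.01 CPM in BE2C and 35.8 ± 1.27 CPM in Kelly (3.67 ± 0.036), LAMB1, a laminin chain with 339 ± 5.34 CPM in BE2C and 159 ± 2.53 CPM in Kelly (1.09 ± 0.031), and DLD, a subunit of mitochondrial dehydrogenases with 239 ± 1.97 CPM in BE2C and 58.7 ± 0.968 CPM in Kelly (2.02 ± 0.035). On chromosome 9, from CKS2 to TEX10 (89311198–100352939), the median was 1.52 with 49 of 50 genes above 0, among them the isoleucyl-tRNA synthetase IARS1 (1.23 ± 0.028), the cap-binding protein NCBP1 (1.98 ± 0.037) and FAM120A (2.39 ± 0.038). On chromosome 11, from PHLDB1 to FAM118B (118606440–126262986), the median was 1.41 with 45 above 0, and the chaperone HSPA8 had 3837 ± 119 CPM in BE2C and 1823 ± 46.3 CPM in Kelly (1.07 ± 0.028).

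The lowest windows, again 1 for each chromosome, lay on chromosome 22 from CCDC188 to TTC28 (median −0.79, 44 of 50 genes below 0), on chromosome 11 from MARK2 to RNASEH2C (−0.78, 47 below 0) and on chromosome 3 from ZNF620 to IP6K2 (−0.71, 43 below 0). The one on chromosome 11 held the nuclear noncoding RNAs MALAT1, with 561 ± 22.7 CPM in BE2C and 1196 ± 122 CPM in Kelly (−1.09 ± 0.043), and NEAT1, with 88 ± 9.02 CPM in BE2C and 262 ± 22.7 CPM in Kelly (−1.57 ± 0.053), and that on chromosome 3 CTNNB1, encoding beta-catenin, with 197 ± 3.87 CPM in BE2C and 424 ± 7.02 CPM in Kelly (−1.10 ± 0.030). NEAT1 had 0.29 between the shAhR-2 libraries, and MALAT1 lost its call against 2-fold without the first or second BE2C library or the third Kelly library (edgeR adjusted p = 0.0770, 0.1001 and 0.390), in the fit of all 18 libraries (0.0565) and with DESeq2 (adjusted p = 1). Over whole chromosomes the median was lowest for chromosome 22 (−0.61 over 401 genes), 13 (−0.50) and 3 (−0.49), and highest for chromosome 9 (0.34 over 622 genes) and 20 (0.34). DNA copy number was not measured here.

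**Figure D5:**
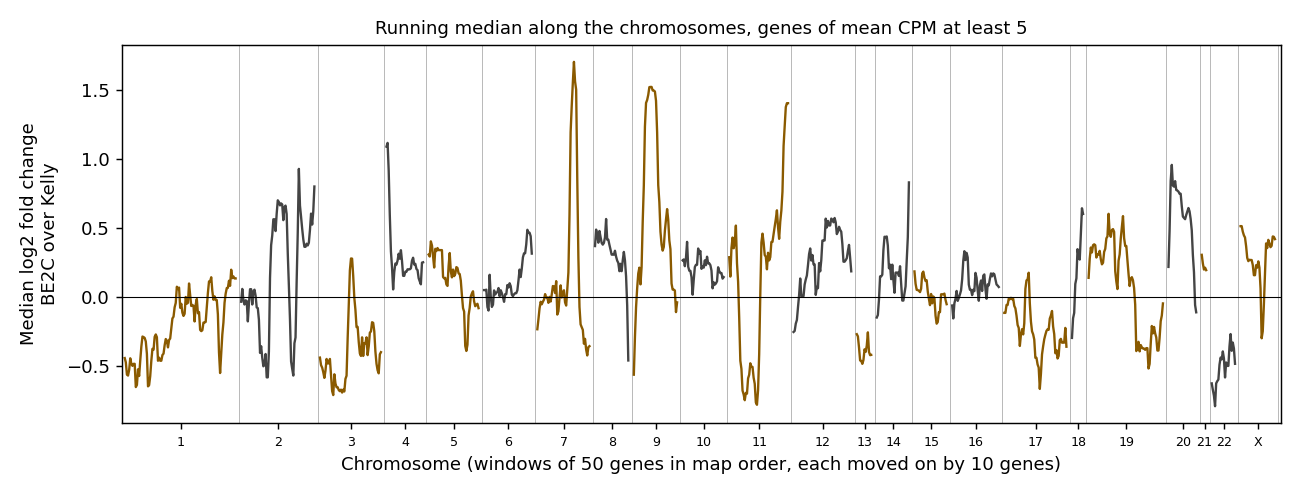
Median log2 fold change of BE2C over Kelly in windows of 50 genes in map order, chromosome by chromosome, for genes with a mean of at least 5 CPM. Peaks of 1.71, 1.52 and 1.41 stand on chromosomes 7, 9 and 11, and most of chromosomes 3, 13 and 22 lies below 0.

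Among abundant genes some had the same level in both lines. Of genes with a mean of at least 200 CPM, the smallest fold changes belonged to the mitochondrial gene MT-ND6, the cyclophilin gene PPIA with 1247 ± 6.16 CPM in BE2C and 1246 ± 24 CPM in Kelly (0.00 ± 0.026), TTC3 with 474 ± 12.6 CPM in BE2C and 472 ± 3.03 CPM in Kelly, YWHAQ with 691 ± 13.7 CPM in BE2C and 689 ± 13.1 CPM in Kelly, the histone deacetylase HDAC2 with 378 ± 4.73 CPM in BE2C and 379 ± 7.37 CPM in Kelly and the peroxiredoxin PRDX1 with 236 ± 5.02 CPM in BE2C and 237 ± 7.08 CPM in Kelly. GAPDH, widely used as a reference, had 2155 ± 37.8 CPM in BE2C and 2300.3 ± 58.5 CPM in Kelly (−0.09 ± 0.027), and the MYCN-neighbouring gene DDX1 was nearly as close. Some of these values changed sign with the hairpins. Between the shAhR-1 libraries GAPDH had 0.0123, YWHAQ −0.14 and PPIA −0.0781, and between the shAhR-2 libraries PPIA had −0.22, PRDX1 0.0937 and TTC3 −0.83, so a gene at the same level in the controls was not so in every condition.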

How the data were processed

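The authors deposited raw counts in 1 table for each line, with 39368 gene symbols in common. Per the labels' protocols, the miRNeasy mini kit gave total RNA and the RNA HyperPrep Kit with RiboErase the libraries. Per the submitters' processing notes, CASAVA 1.8.2, STAR 2.7.9a and GRCh38.p7 were used. Neither the counting tool nor its annotation or strand setting is given in the sources used here. No column of the tables was left without a sample (0 unused). Between 69.3% and 72.5% of counts from 1 to 20 were even, so both mates of a read pair may be counted, and halved counts were tried.

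The 6 control libraries were fitted with edgeR 4.0.16 (filterByExpr, TMM, glmQLFit, glmQLFTest), with line as the only term, and Benjamini-Hochberg adjustment over 15368 genes at 0.05. The test against 2-fold was glmTreat at a log2 fold of 1. SE is the fold change over the square root of F, and CPM values use TMM library sizes. Bounds for genes at 0 in a line use a floor of 3 counts over its 3 libraries, and list medians did not move with such genes at their bound. Pairs of replicates differed beyond sampling noise (mean chi-square 3.17 to 6.59 per gene). The code was tested on simulated data. Locations are from GENCODE 29, with 36814 genes matched by symbol, 2378 by identifier and 176 not matched.

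Members and gene lists were chosen with earlier results of these data known. Named genes were the 12 highest and 12 lowest folds beyond 2-fold with a mean of at least 5 CPM, up to 4 of each direction beyond 2-fold from each list with a mean of at least 1 CPM, its 2 members with the most counts, a fixed set of neuroblastoma genes and the 6 steadiest genes with a mean of at least 200 CPM. Of the 3 highest and 3 lowest windows, genes were taken from the 5 with the highest CPM. VIM, CDK4, HOXA13, HOXC6, HOXC9 and, for a plot, PHOX2A were named after their values were seen. Genes that reveal sex, and some others that the rule names, are not reported here. Alternatives were RLE scaling, no filter beyond a total above 0, a mean of at least 1 CPM, halved counts, no mitochondrial genes, all 18 libraries, a replicate block, each library left out, DESeq2 1.42.0, and the shAhR-1 and the shAhR-2 libraries in place of the controls. R 4.3.3, limma 3.58.1, Python 3.11.15, numpy 2.4.6, pandas 2.3.3 and matplotlib 3.10.9 were used.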

Additional observations from a re-analysis of the deposited data

How the results depend on the processing

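Counts beyond 2-fold stayed within 1.5 times in every alternative, from 1250 higher and 1974 lower in BE2C at a mean of at least 1 CPM, where fewer genes were tested, to 1820 higher and 2693 lower in the fit of all 18 libraries and 2396 higher and 2500 lower between the shAhR-2 libraries, with 1354 higher and 2119 lower by DESeq2. With each control library left out in turn they were 1599 to 1648 higher and 2416 to 2522 lower. The replicate numbers did not pair the samples, since same-numbered libraries of the lines correlated at 0.019, −0.017 and 0.033, and the fit with the replicate block called 1579 higher and 2418 lower. Of 187 named genes beyond 2-fold 179 stayed so in every setting on the controls that tested them, since a stricter filter could leave a gene untested. MYCN passed in 6 of the settings on the controls and TEX15 in 1. No named gene changed sign within the controls.

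The lines with hairpins gave other values. With shAhR-1 libraries in place of the controls these genes had the opposite sign: ADCYAP1 −1.41, ATRX −0.17, COL1A1 0.56, DBH 1.01, DDX1 0.0568, GAPDH 0.0123, MKI67 −0.0519, PHOX2A 0.41, PPIA −0.0781, TH 0.12, TUBA1A −0.29 and YWHAQ −0.14. With shAhR-2 libraries these did: ADCYAP1 −0.54, ATRX −0.41, COL1A1 1.97, GNAS 0.32, HMOX1 1.00, ISL1 0.0545, MAP1B −0.38, MCAM −0.53, NEAT1 0.29, NEFM −0.0684, NGFR 1.42, PPIA −0.22, PRDX1 0.0937, SRC 1.10, STAT2 0.0944, TBX18 3.59, TGFB1 0.27 and TTC3 −0.83. The mitochondrial share differed by 6.94 points with shAhR-1 and 6.50 with shAhR-2, against 3.53 to 4.09 with single control libraries left out. The median of chromosome 22 was −0.53 and −0.52 and that of chromosome 9 was 0.43 and 0.42 in the same order. The cause was not tested. The AHR ratio was 0.243 with halved counts and 0.170 to 0.337 with single libraries left out. Depth limits AHR and the other genes that the filter on low counts left untested.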

Other observations

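Crest and SOX factors were divided between the lines. Of 24 listed genes 16 were tested, 6 higher and 6 lower in BE2C beyond 2-fold. The homeobox gene MSX2 had 43.5, 42.4 and 43 CPM in the BE2C libraries, against 1.85, 1.92 and 1.97 CPM in the Kelly libraries (4.49 ± 0.090), and the factors SOX18 (3.20 ± 0.17), SOX6 (2.72 ± 0.31) and ETS1 with 67.1 ± 2.94 CPM in BE2C and 11.9 ± 0.65 CPM in Kelly were higher in BE2C. SOX5, a SOX factor of crest and cartilage, had 0.439, 0.477 and 0.148 CPM in the BE2C libraries, against 13.8, 13.8 and 16.5 CPM in the Kelly libraries (−5.36 ± 0.20), and DLX5 (−3.61 ± 0.19) and SOX9 (−2.05 ± 0.15) were lower too. The lines did not overlap for MSX2 or SOX5.

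Surface proteins used as targets of therapy or imaging differed as well. Of 23 listed genes 20 were tested, 5 higher and 6 lower in BE2C. ST8SIA1, the sialyltransferase that makes the precursor of the ganglioside GD2, had 0.342, 0.62 and 0.443 CPM in the BE2C libraries, against 5.24, 5.82 and 6.26 CPM in the Kelly libraries (−3.61 ± 0.22). The receptor ROR2 had 55.6 ± 1.55 CPM in BE2C and 12.8 ± 0.696 CPM in Kelly (2.12 ± 0.063), the adhesion molecules L1CAM 424 ± 9.54 CPM in BE2C and 187 ± 2.86 CPM in Kelly (1.18 ± 0.031) and NCAM1 323 ± 4.38 CPM in BE2C and 229 ± 1.06 CPM in Kelly (0.50 ± 0.030), and MCAM was higher (1.33 ± 0.075) but had −0.53 between the shAhR-2 libraries. Of 14 retinoic acid genes tested of 21 listed 2 were higher, RDH10 of retinoid oxidation (1.68 ± 0.080) among them, and 2 lower, among them the binding protein CRABP1, with 20.7 ± 1.58 CPM in BE2C and 45.3 ± 3.42 CPM in Kelly (−1.13 ± 0.067). CRABP1 lost its call without the third BE2C library (edgeR adjusted p = 0.252), the first Kelly library (0.154) or the third (0.0916), and with DESeq2 (0.369).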
